A study of Mus musculus with 12 samples.

Results

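The genes described here had their highest mean at day 2 of a time course of mouse embryonic stem (ES) cells, some with day 4 close to it. They were selected on their values: protein-coding genes with a mean of at least 5 CPM (a gene's count scaled to a library total of 1000000) at day 2, at least 2 times the means of days 0 and 6, and not below the mean of day 4. The lowest day 2 library also had to lie above every day 0 and day 6 library, and symbols starting with Hox, Zscan4 or Col were left out. Of 21849 protein-coding genes, 10724 reached 5 CPM at day 2, 1193 of these were at least 2 times day 0, and 130 were also at least 2 times day 6. The condition on day 4 left 111, the one on single libraries 110, and the one on names 102. Day 2 against days 0, 4 and 6 is therefore given as a description without a test.

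Polyadenylated RNA was sequenced from 12 libraries of a mouse ES cell line labelled mESC, 3 each at days 0, 2, 4 and 6. Every label names the same culture for all 4 days, on gelatin with irradiated fibroblast feeders, in a medium holding a serum replacement and LIF, a cytokine that sustains self-renewal. The labels name no genotype, agent or age for any day and leave the handling of the cells after day 0 unstated. The title of the series names the NuRD chromatin remodelling complex and the insulator protein CTCF, and no label gives a manipulation of either.

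Embryonic stem cells leave self-renewal in a sequence of gene changes, and some of these changes are short pulses rather than lasting switches. Retinoic acid, made from vitamin A, enters the nucleus and binds receptors that sit on DNA and turn on direct targets such as Stra8, the gatekeeper of entry into meiosis. A small part of ES cells in culture also passes at times through a state in which genes of the 2-cell embryo are switched on, among them the Zscan4 family and many young, repeated gene families.

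Total counts ran from 6945900 to 13266962 per library, and the floor used here, 3 counts summed over the libraries of a day, stood at 0.115 CPM at day 0. Beside the genes described, 27 pluripotency genes summed to 6425, 3173, 1896 and 1534 CPM at days 0, 2, 4 and 6. Markers of 2 other kinds of cell also moved over the days. The 25 feeder fibroblast markers summed to 1465, 946, 662 and 999 CPM, a sum lower at day 2 than at day 0. That sum does not describe most of these markers. Of 21 tested with edgeR (below), 15 were higher and 5 lower at day 6 than at day 0, beside 39.4% and 37.5% of all genes. At day 4 against day 0, 12 were higher and 6 lower, beside 37.5% and 36.1% of all genes. The 35 endoderm markers went from 1979 to 5062, 8833 and 10521 CPM in sum. Mitochondrial genes held 1.61%, 1.43%, 2.43% and 2.00% of counts. The part of these shifts in the results was not tested, and in bulk RNA fewer cells of a type and less RNA per cell cannot be told apart. The labels do not say that replicates were separate cultures, and a p-value given here then reflects library-to-library spread alone, perhaps only technical.

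**Figure D1:**
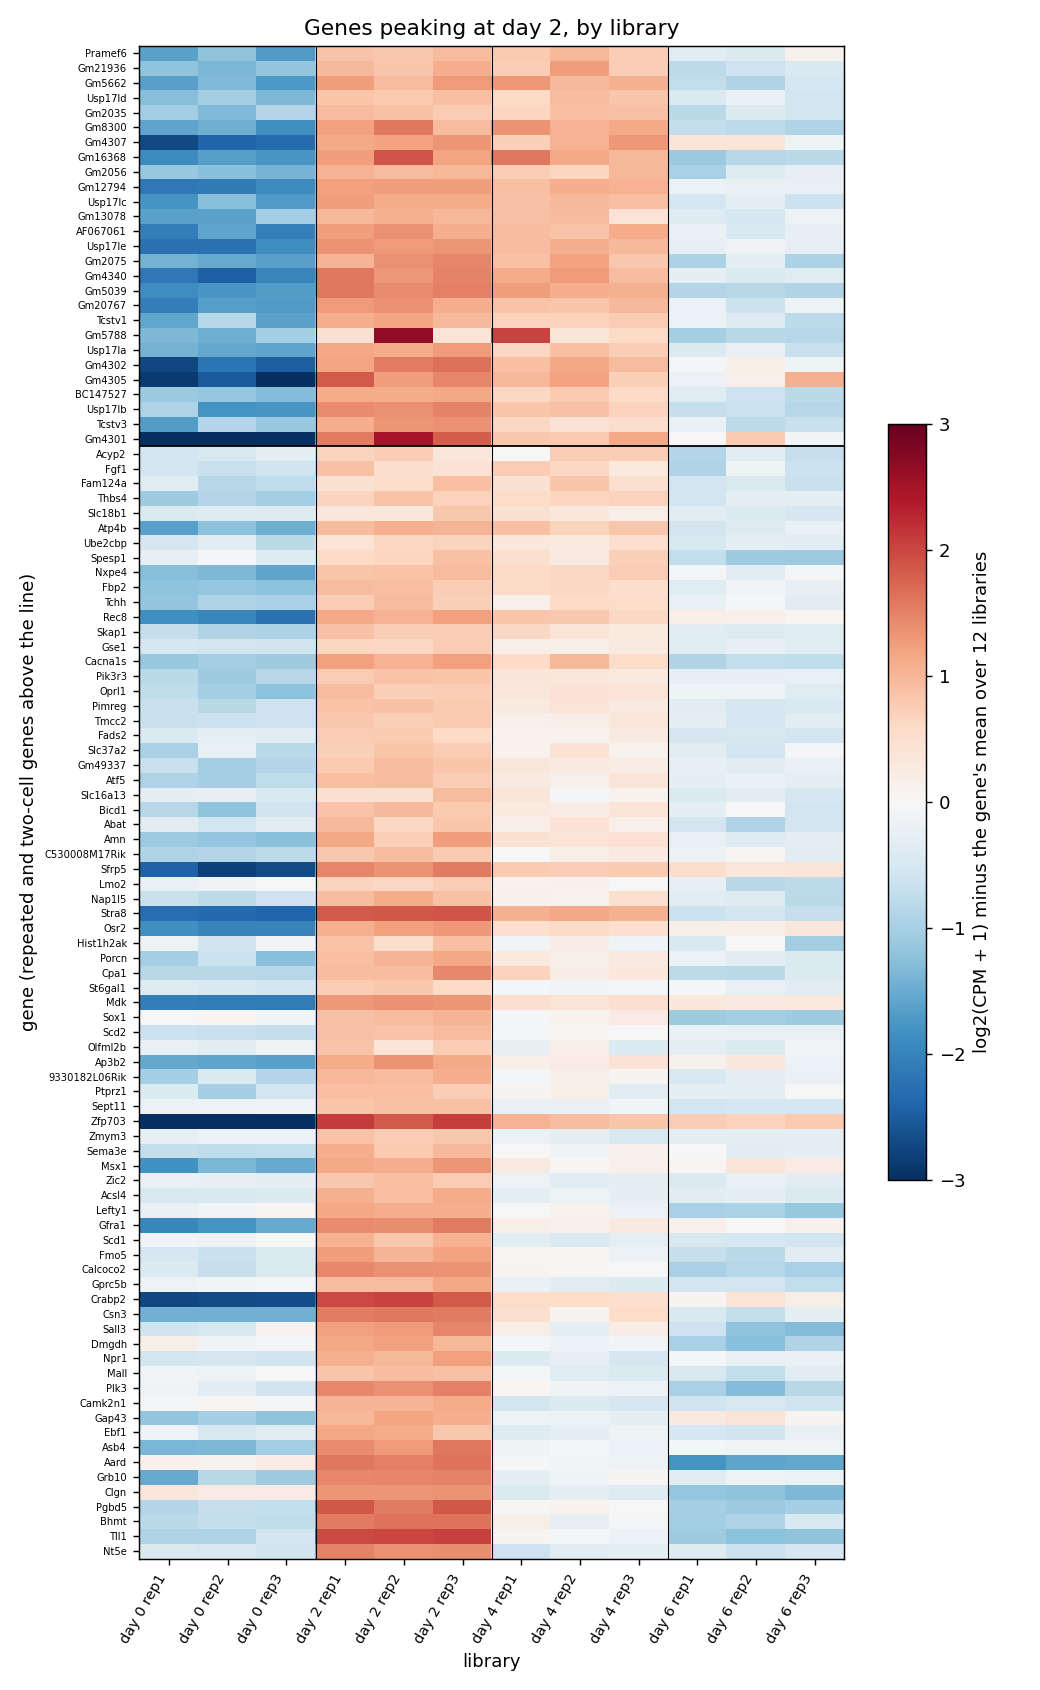
Each row is a gene and each column a library, 3 per day. Colour gives log2(CPM + 1) minus the gene's own mean over the 12 libraries, so red is above and blue below that mean. Genes of repeated families and of the 2-cell embryo stand above the black line, and within each block genes are ordered by the level kept at day 4, which runs from 98.3% of day 2 at the top of the upper block to 17.0% at the bottom of the lower block.

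Most of the 102 peaks were modest. Day 2 stood at 2.00 to 9.69 times the larger of the day 0 and day 6 means, with a median of 2.68. The ratio was under 3 in 66 genes, between 3 and 5 in 23, between 5 and 10 in 13, and at least 10 in 0. Just inside the bound of 2 were Gap43, a growth-cone protein of neurons, at 2.00, C530008M17Rik at 2.01 and Gse1 at 2.01. Just outside were Gm4312 at 2.00 (1.9997 before rounding), Dpp7 at 1.98 and Glis2 at 1.98. Day 4 kept 17.0% to 98.3% of the day 2 mean, with a median of 63.5%, and stood at 50% or less in 34 genes. The day 2 libraries all lay above the day 4 libraries in 83 genes and overlapped them in 19. With CPM scaled by TMM in the same rule, 89 genes remained, all among the 102, and the 13 that missed the bound include Clgn and Sox1.

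The rule puts the same bound on days 0 and 6 and does not set which of them is higher, so day 6 against day 0 was tested. Both days are bounded from above by day 2, so the size and the counts of these changes are still partly shaped by the rule. In the quasi-likelihood test of edgeR, with p adjusted over 16468 genes by the Benjamini-Hochberg method, 59 of the 102 genes were higher at day 6 than at day 0, 19 were lower and 24 were not called. Among the 89 genes that the rule selects on TMM-scaled CPM, 55 were higher and 12 lower. In percent, 57.8 were higher and 18.6 lower, while of all genes tested 39.4% were higher and 37.5% lower. The median log2 change was 0.60, against 0.017 over all genes. With library size alone as the scaling, the median over all genes moved by 0.104 on the log2 scale in this comparison.

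Day 4 against day 0 and day 6 against day 4 share libraries that the rule bounds from above, so their counts are partly set by it. By the same test 78 genes were higher at day 4 than at day 0, 7 were lower and 17 were not called, beside 37.5% higher and 36.1% lower of all genes. Of the 89 genes selected on TMM-scaled CPM, 3 were lower at day 4 than at day 0 and 1 was higher at day 6 than at day 4. Between days 4 and 6, 78 of the 102 fell, 2 rose and 22 were not called, beside 19.3% lower and 23.6% higher of all genes. The 2 that rose were Gap43, with a log2 change of 0.60 ± 0.20 (SE) and an adjusted p of 0.0145 by edgeR, and Npr1, a receptor for natriuretic peptides, with 0.26 ± 0.091 and 0.0193. DESeq2 called neither, with adjusted p of 0.0985 for Gap43 and 0.0952 for Npr1 and 2 genes higher at an unadjusted p under 0.05. EdgeR no longer called Gap43 without day 6 replicate 2 (0.0544), or Npr1 without day 4 replicate 1 (0.0762), day 4 replicate 3 (0.0869) or day 6 replicate 1 (0.155).

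**Figure D2:**
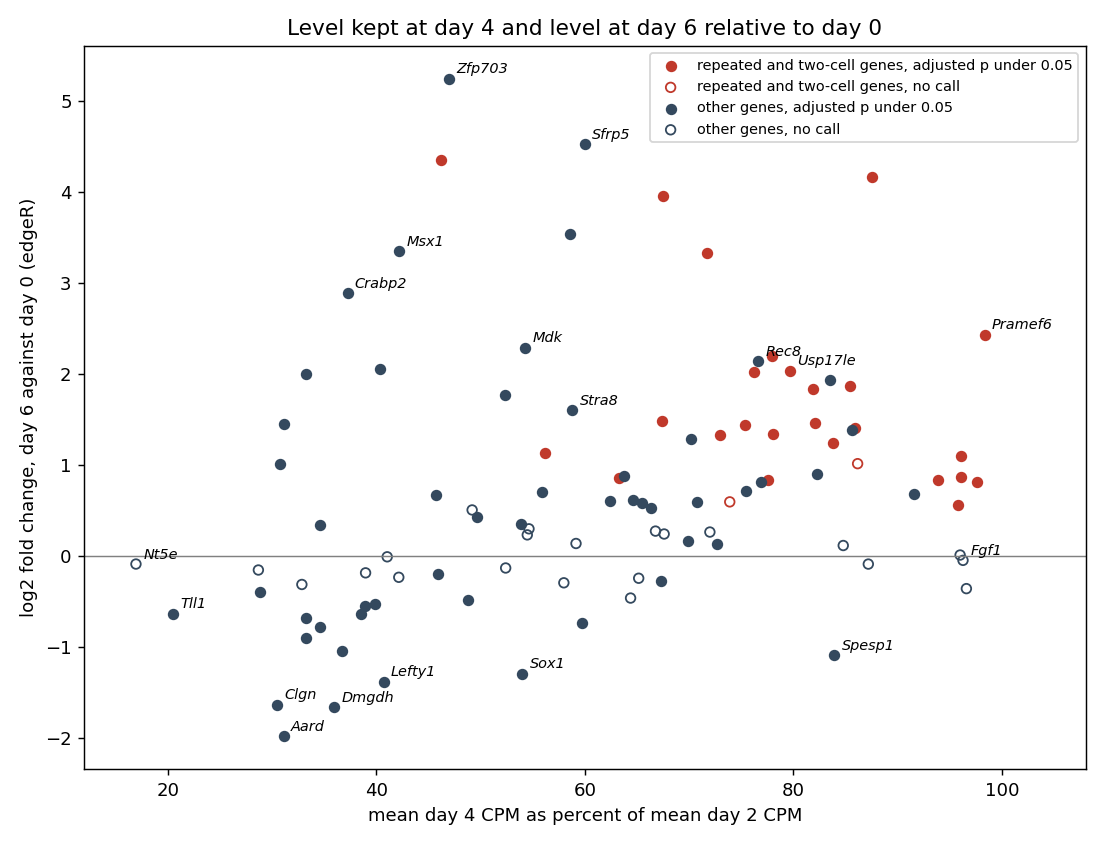
Each point is 1 gene. The horizontal axis is the mean day 4 CPM as a percent of the mean day 2 CPM, and the vertical axis is the fitted log2 change of day 6 against day 0, filled where the adjusted p is under 0.05. Red points, the repeated and 2-cell genes, lie above 0 in all 27 cases, while the other genes lie on both sides; Csn3, with no count at day 0, is not drawn.

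Stra8 had the highest day 2 CPM of all 102 genes. It lies at chr6:34920163-34939344, plus strand in mm10 and encodes a nuclear protein that germ cells need to start meiosis, and it is a textbook target of retinoic acid. Its libraries read 171, 166 and 161 at day 0, 3035, 3071 and 3115 at day 2, 1762, 1888 and 1771 at day 4, and 536, 576 and 519 CPM at day 6. The 4 days did not overlap. Day 2 was 18.5 times day 0, day 4 kept 58.8% of day 2, and day 6 still lay above day 0 by a log2 change of 1.60 ± 0.049 (SE; adjusted p = 1.38e-27, edgeR).

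The stretches that hold the half-sites of the Stra8 start region are shown because Stra8 had the highest day 2 CPM of the group. Nuclear receptors such as the retinoic acid receptor bind pairs of a short half-site set as direct repeats. The half-sites searched on both strands were AGGTCA, the best known of them, then GGGTCA with another first base, and likewise AGTTCA as well as, last of all, GGTTCA. In the 250 bases before the RefSeq start of Stra8 (GRCm38.p6, the build of mm10), AGGTCA occurred at positions -194 to -189 and -38 to -33 from the start, in capitals below. Both stretches lie inside the gene as GENCODE annotates it, which starts further upstream, at 34920163.
Stra8, chr6:34920742-34920771, plus strand: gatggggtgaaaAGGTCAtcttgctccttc
Stra8, chr6:34920898-34920927, plus strand: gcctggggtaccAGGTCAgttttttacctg
These 2 copies of AGGTCA are too far apart to form a direct repeat with a spacer of 1, 2 or 5 bases. The first copy has gggtga 2 bases before it, a spelling outside those searched, so a repeat of that kind was not counted. Among 75 windows of 300 bases, from the 59 genes with a RefSeq promoter, none held such a repeat of the searched half-sites. Of all 21263 protein-coding windows 0.353% did. With a share that low, finding none in 75 windows does not set the group apart. Crabp2, Mdk and Zfp703 had no window and were not searched. At least 1 searched half-site was present in 45.3% of the 75 windows, beside 41.2% of all. A match or its absence describes these letters only.

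Crabp2 and Rec8 are the other genes of the group from the retinoic acid and meiosis lists. Crabp2, which carries retinoic acid to its nuclear receptors, read 13.8, 14.4 and 14.6 at day 0, 386, 397 and 350.0 at day 2, 142, 142 and 137 at day 4, and 103, 129 and 110.4 CPM at day 6. Its day 4 and day 6 libraries lay between those of days 0 and 2 and did not overlap. Day 6 was above day 0 by 2.89 ± 0.093 on the log2 scale (adjusted p = 1.51e-18, edgeR). Rec8 encodes the cohesin subunit that holds sister chromatids together in meiosis. Its libraries read 10.5, 9.65 and 7.82 at day 0, 89.7, 84.7 and 95.9 at day 2, 72.4, 71.8 and 62.9 at day 4, and 45.9, 45.3 and 42.1 CPM at day 6. The days did not overlap, day 4 kept 76.6% of day 2, and day 6 lay above day 0 by 2.14 ± 0.094 (adjusted p = 2.12e-22).

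Most other retinoic acid genes that came up did not meet the rule. Of 30 listed genes 18 reached 5 CPM at day 2 and 2 times day 0, and 16 of these missed the group because day 6 kept more than 50% of day 2. In 12 of the 16 day 4 was higher still. Cyp26a1, the enzyme that breaks down retinoic acid, had means of 1.70, 748, 766 and 601 CPM at days 0, 2, 4 and 6. Rarb, a retinoic acid receptor and a direct target of its own ligand, had 0.631, 66.3, 139 and 158 CPM. Over the list, 22 of 29 tested genes were higher at day 6 than at day 0 and 6 were lower in the edgeR test, beside 39.4% higher and 37.5% lower of all genes. The sum over the list was 501, 5351, 4364 and 3240 CPM, and Stra8 alone made up 3073 of the 5351 CPM at day 2.

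Among 59 listed genes of meiosis and the germline, Stra8 and Rec8 alone met the rule. Of the 13 that reached 5 CPM and 2 times day 0, the other 11 missed it at both day 6 and day 4. Dazl, an RNA-binding protein of germ cells, was at 36.6, 195, 316 and 171 CPM, highest at day 4. Sycp1, of the synaptonemal complex, was at 33.3, 74.1, 83.2 and 70.3 CPM.

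Few listed signalling genes met the rule, Sfrp5 alone of 53 Wnt, Notch and Hedgehog genes, and Lefty1 and Fgf1, that is 2, of 53 TGF-beta, BMP and FGF genes. Of the first list 20 of 38 tested genes were higher at day 6 than at day 0 and 12 lower, and of the second 18 of 44 were higher and 21 lower, beside 39.4% higher and 37.5% lower of all genes (edgeR). Mdk, Porcn and Gfra1, which are in neither list, are described with them. Mdk encodes midkine, a heparin-binding growth factor first found as a gene induced by retinoic acid. Its libraries read 282, 277 and 277 at day 0, 2960.3, 3095 and 3014 at day 2, 1660.5, 1596 and 1668 at day 4, and 1483, 1449 and 1463 CPM at day 6. Its 4 days did not overlap, and day 6 stayed 4.89 times above day 0 in the fit, a log2 change of 2.29 ± 0.046 (adjusted p = 7.03e-34, edgeR). Per kb of exon, Mdk stood at 2283 CPM at day 2 and Stra8 at 1705, so on that scale the order of these levels was turned.

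Sfrp5, a secreted inhibitor of Wnt signals, read 0.247 to 0.633 CPM at day 0, 21.3 to 24.7 at day 2, 13.5 to 14.1 at day 4 and 10.1 to 11.5 at day 6. The days did not overlap, and day 6 exceeded day 0 by 4.53 ± 0.25 (adjusted p = 2.46e-19). Porcn, the enzyme that adds the lipid Wnt proteins need for secretion, had means of 3.48, 16.7, 9.35 and 6.01 CPM and stayed above day 0 by 0.70 (adjusted p = 0.000785). Gfra1, a co-receptor for the growth factor GDNF, had 3.10, 36.9, 14.9 and 13.8 CPM and a log2 change of 2.06 ± 0.15 at day 6 (adjusted p = 1.44e-15). Together with Mdk these genes peaked at day 2 and were still above day 0 at day 6. Their levels did not all hold after day 4. At day 6 against day 4, edgeR called Porcn (log2 change -0.60, adjusted p = 0.000954), Sfrp5 (-0.34, 0.0122) and Mdk (-0.14, 0.00633) lower. Gfra1 was not called (-0.073, adjusted p = 0.604).

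Lefty1, a secreted inhibitor of Nodal signals, also peaked at day 2 but ended below day 0. Its libraries read 3.80, 4.21 and 4.62 at day 0, 11.3, 10.7 and 10.7 at day 2, 4.49, 4.92 and 3.89 at day 4, and 1.81, 1.85 and 1.48 CPM at day 6. Days 0 and 4 overlapped and day 6 lay below every other library, at -1.38 ± 0.22 on the log2 scale against day 0 (adjusted p = 3.86e-07, edgeR). Fgf1, a fibroblast growth factor, had means of 1.99, 6.02, 5.80 and 2.17 CPM, and its day 2 and day 4 libraries overlapped. Its change of day 6 against day 0 was -0.049 ± 0.29 and not called (adjusted p = 0.885). Grb10, an imprinted adaptor that dampens insulin and growth factor receptors, had 2.97, 22.7, 6.98 and 6.40 CPM and stayed above day 0 by 1.01 (adjusted p = 9.45e-06). Of 31 listed imprinted genes with values, 10 reached 5 CPM and 2 times day 0, and Grb10 alone met the rule. The sum over that list rose, with 1450, 3151, 5499 and 8381 CPM. Of its 27 tested genes 22 were higher at day 6 than at day 0 and 1 lower, beside 39.4% and 37.5% of all genes.

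The transcriptional regulators described next were grouped after their values were seen. Zfp703, a corepressor, had the largest rise from day 0 among genes with counts there. Its libraries read 1.05, 0.742 and 1.18 at day 0, 107, 89.0 and 106 at day 2, 51.0, 46.9 and 43.6 at day 4, and 41.5, 39.7 and 42.3 CPM at day 6. Day 2 was 101 times day 0 on 26 counts at day 0, days 4 and 6 did not overlap with day 2, and day 6 stayed above day 0 by 5.25 ± 0.16 (adjusted p = 7.24e-28, edgeR). Msx1 and Osr2, regulators of limb and facial mesenchyme, followed at lower levels, with 0.319, 7.87, 3.32 and 3.55 CPM for Msx1 and 0.418, 11.6, 6.80 and 5.45 CPM for Osr2. They stayed above day 0 by 3.35 ± 0.37 (adjusted p = 1.65e-10) and 3.54 ± 0.29 (adjusted p = 7.06e-14) from 8 and 11 counts at day 0. Of 34 listed mesoderm genes 6 reached 5 CPM and 2 times day 0, and Msx1 alone met the rule. The sum over that list rose, with 228, 353, 486 and 570 CPM. Of its 26 tested genes 18 were higher at day 6 than at day 0 and 7 lower, beside 39.4% and 37.5% of all genes (edgeR).

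Sox1, an early regulator of the neural plate, read 12.02, 12.4 and 11.3 at day 0, 22.8, 23.8 and 25.1 at day 2, 11.6, 12.9 and 14.3 at day 4, and 5.13, 5.35 and 5.17 CPM at day 6. Its day 0 and day 4 libraries overlapped, and day 6 lay below all others, -1.29 ± 0.13 against day 0 (adjusted p = 2.19e-11). Sall3 had means of 3.10, 11.6, 4.28 and 1.51 CPM and was also below day 0 at day 6, by -1.05 (adjusted p = 0.00166). Zic2, of early neural tissue, had 4.22, 9.93, 4.19 and 3.90 CPM, and its change of -0.24 ± 0.18 was not called (adjusted p = 0.244). Of 40 listed neuroectoderm genes, 6 reached 5 CPM and 2 times day 0, and Sox1 and Zic2 were the 2 that met the rule. These 2 do not stand for the list, whose sum was 203, 262, 314 and 316 CPM over the days. Of its 32 tested genes 21 were higher at day 6 than at day 0 and 7 lower, beside 39.4% and 37.5% of all genes (edgeR). Lmo2 and Ebf1, regulators of blood cell development, had 2.59, 5.20, 3.11 and 1.58 and 2.63, 8.19, 2.69 and 2.31 CPM in the order of the days.

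**Figure D3:**
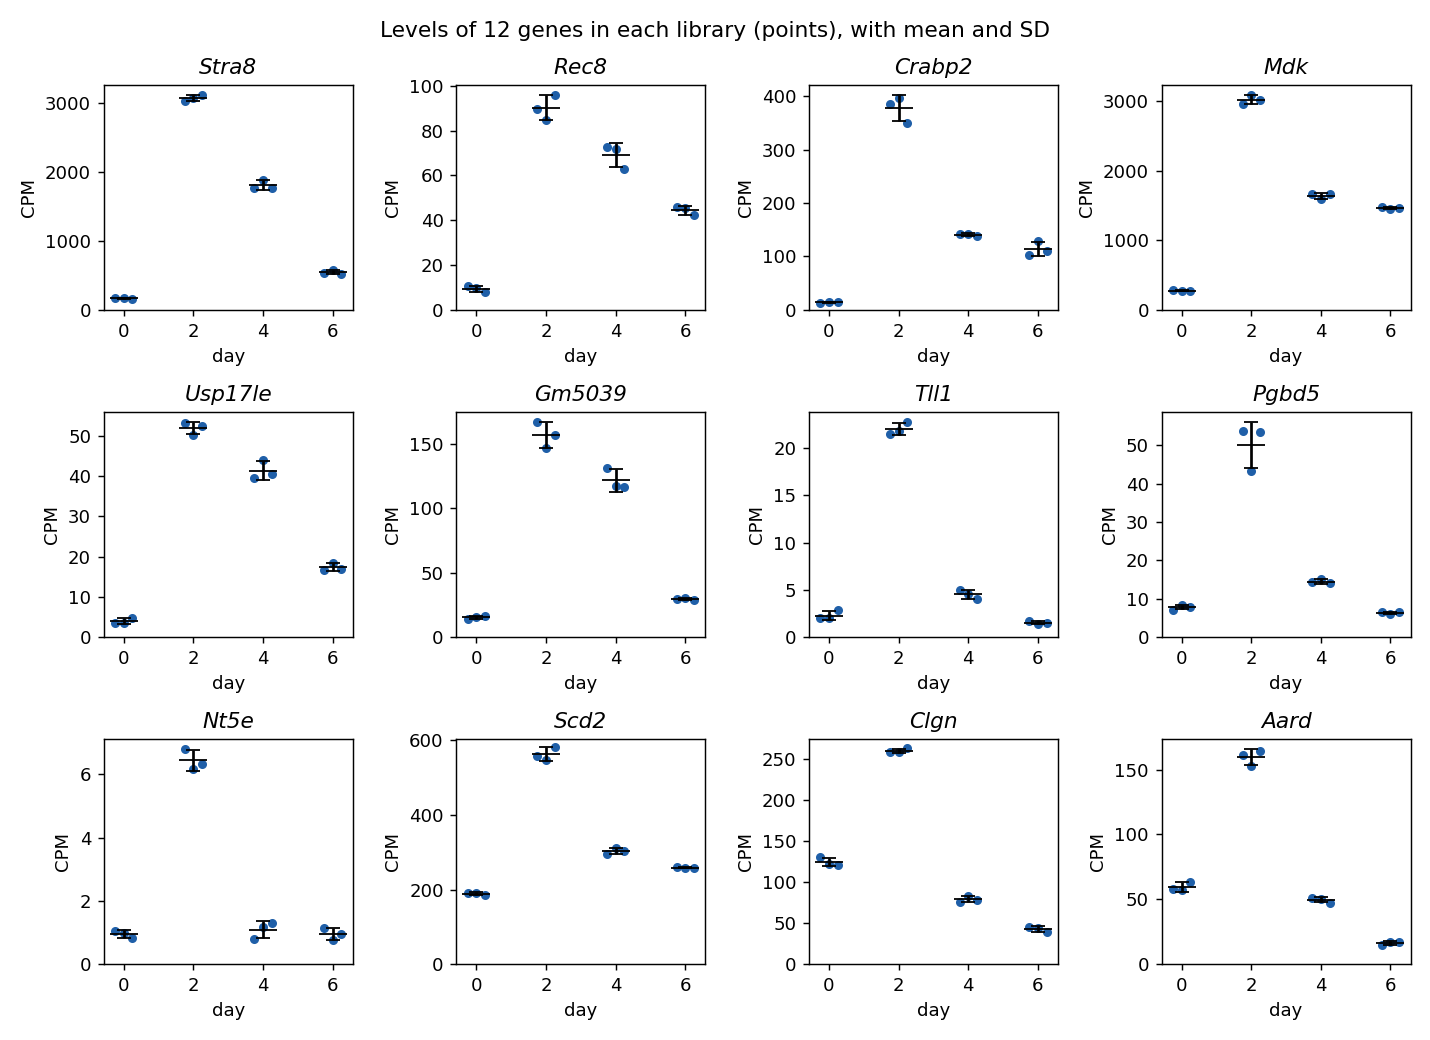
CPM of 12 genes in each library, with days on the horizontal axis, CPM from 0 on each gene's own vertical axis, 1 point per library, and the mean with its SD as black marks. Stra8, Rec8, Crabp2, Mdk and Usp17le stay above day 0 at day 6, Nt5e is close to its day 0 level by day 4, and Clgn and Aard end below day 0.

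A set of 27 genes belonged to repeated families or to a list of genes of the 2-cell embryo. It holds 16 genes of that list (Zscan4 apart) and 11 that lie near another gene of the group and share at least 10% of their 50-base stretches with transcripts of other genes, leaving out genes whose exons overlap another gene (Bhmt, Pik3r3 and Gm49337). Their summed level was 65.3 ± 3.80, 797 ± 29.9, 624 ± 15.9 and 223 ± 8.69 CPM (SD, n = 3) at days 0, 2, 4 and 6. The sums of the 4 days did not overlap. In the edgeR test 25 of the 27 were higher at day 6 than at day 0 and 2 were not called, all 27 with an estimate above 0, with a median log2 change of 1.41. Of the other 75 genes 34 were higher, 19 lower and 22 not called, with a median of 0.23. Of all genes tested 39.4% were higher and 37.5% lower, with a median of 0.017. Some of the 27 are near-identical copies that may share reads, so their calls are not those of 27 independent genes. Day 4 kept a median of 79.7% of day 2 in the 27 genes and 54.3% in the others.

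Usp17le, of a family of deubiquitinating enzymes that remove ubiquitin from proteins, read 3.48, 3.46 and 4.86 at day 0, 53.2, 50.3 and 52.4 at day 2, 39.5, 44.1 and 40.6 at day 4, and 16.7, 18.5 and 16.9 CPM at day 6. The days did not overlap and day 6 exceeded day 0 by 2.04 ± 0.13 (adjusted p = 5.31e-17, edgeR). Gm5039 had the highest level of the set, with 15.3, 157, 121 and 29.5 CPM, and Gm12794, of the PRAME-like family, 8.32, 90.6, 77.3 and 32.7 CPM. Pramef6, of the same family, kept the most at day 4, 98.3% of its day 2 mean of 6.38 CPM. Tcstv3 and Tcstv1, known as 2-cell genes on chromosome 13, had 0.991, 9.98, 5.61 and 2.18 and 0.828, 8.46, 6.37 and 2.31 CPM. Tcstv3 was above day 0 at day 6 by 1.13 ± 0.34 (adjusted p = 0.00293), but was not called without day 0 replicate 1 (0.0583) or day 6 replicate 1 (0.0695).

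Many of these genes lay side by side. On chromosome 12, 7 genes lay between 87795512 and 88324026 and 2 more between 87494721 and 87518266. On chromosome 13, Gm20767, AF067061, BC147527 and Tcstv3 lay between 120140246 and 120318178, and on chromosome 7 Usp17ld and Usp17lc lay between 103249737 and 103419880 and Usp17le, Usp17lb and Usp17la between 104768049 and 104862667. On chromosome 10, Gm4301, Gm4302, Gm4305 and Gm4307 lay between 100335676 and 100362247. In all, 30 of the 102 genes (29.4%) had another of them within 200 kb. As a looser measure, 97.5% of all protein-coding genes have any protein-coding gene that close.

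Near-identical copies make the values of single repeated genes uncertain, because the handling of reads with several positions is not given in the sources used here. In 16 of the 102 genes at least 50% of the 50-base stretches also occur in transcripts of other genes. Gm5788 shows the limit, with 4.69, 25.1 and 4.53 CPM at day 2 and 15.9, 4.33 and 5.18 CPM at day 4. On each of these days 1 library stands far above the other 2, and its change of 0.59 ± 2.24 at day 6 against day 0 was not called (adjusted p = 0.823). RefSeq lists 6 of the 27 genes, Gm5039 and Gm5788 among them, as pseudogenes where the deposited table has protein-coding genes.

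The stretches upstream of the RefSeq start of 4 Usp17 genes are shown for a stretch that copies on separate parts of chromosome 7 share. It lies at a different distance from the RefSeq start in each. That of Usp17lc lies inside the gene as GENCODE annotates it, which starts further upstream, at 103415072. The stretch of Usp17lb reaches into the GENCODE gene, which starts at 104842603 on the minus strand. Over the whole promoter windows these genes are only 54.35% to 83.54% identical. The stretches start with a run of 29 bases that all 4 share exactly, and over 120 bases they are 94.2% to 96.7% identical. TATAAA, the core promoter element that positions transcription starts, is in capitals.
Usp17la, chr7:104856875-104856994, plus strand: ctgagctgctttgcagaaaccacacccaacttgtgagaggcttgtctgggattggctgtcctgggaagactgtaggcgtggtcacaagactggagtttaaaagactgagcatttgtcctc
Usp17lb, chr7:104842590-104842709, minus strand: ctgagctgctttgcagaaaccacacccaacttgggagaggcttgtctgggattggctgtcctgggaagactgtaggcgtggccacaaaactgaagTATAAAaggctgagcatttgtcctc
Usp17lc, chr7:103416513-103416632, plus strand: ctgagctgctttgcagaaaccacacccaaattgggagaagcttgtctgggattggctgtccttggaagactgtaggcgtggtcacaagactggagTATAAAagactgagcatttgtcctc
Usp17ld, chr7:103252591-103252710, minus strand: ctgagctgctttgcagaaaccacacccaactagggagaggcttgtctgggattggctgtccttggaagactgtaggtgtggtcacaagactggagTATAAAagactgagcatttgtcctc
TATAAA stands 31 bases before the RefSeq start in Usp17lb, 88 in Usp17lc and 110 in Usp17ld, and is not found in Usp17la. All 4 genes peaked at day 2, at 17.9, 18.6, 23.6 and 8.85 CPM in that order. Their changes of day 6 against day 0 were 1.33, 0.86, 1.24 and 1.10 on the log2 scale. Over all genes of the group with a promoter window, TATAAA on either strand was in 9.33% of windows, beside 12.6% of all, and CACGTG, the E-box, in 6.67%, beside 7.84%. Only 6 of the 16 listed 2-cell genes of the group had a window, and 4 of these windows are those of the Usp17 genes shown. TATAAA was in 3 of the 6, those of Usp17lb, Usp17lc and Usp17ld, so 1 copied stretch is counted 3 times. The median ratio of observed to expected CpG in the 6 was 0.0729, beside 0.567 over all windows.

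The chromosome 10 genes are shown as a pair for how little their copies differ. Over 170 upstream bases Gm4301 and Gm4305 differ at the 5 bases in capitals.
Gm4301, chr10:100335429-100335598, plus strand: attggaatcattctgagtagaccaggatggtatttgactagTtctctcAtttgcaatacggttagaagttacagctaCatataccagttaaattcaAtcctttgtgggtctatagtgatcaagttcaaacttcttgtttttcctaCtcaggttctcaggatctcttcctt
Gm4305, chr10:100350843-100351012, plus strand: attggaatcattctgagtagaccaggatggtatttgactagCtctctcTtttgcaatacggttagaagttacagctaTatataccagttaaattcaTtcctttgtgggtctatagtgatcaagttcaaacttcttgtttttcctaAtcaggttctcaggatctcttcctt
The promoter windows of Gm4301, Gm4302, Gm4305 and Gm4307 were 96.4% to 100% identical to each other. Gm4301 read 0.844, 0.619 and 0.829 at day 0, 43.4, 82.9 and 52.2 at day 2, 25.4, 24.8 and 32.2 at day 4, and 14.0, 24.98 and 13.3 CPM at day 6. The day 2 libraries spread widely but lay above those of day 4, and day 6 exceeded day 0 by 4.35 ± 0.81 (adjusted p = 0.00101). Within 50 kb of these 4 genes the annotation has 19 genes, of which 13 reached 5 CPM at day 2. Of those 13, 7 are pseudogenes by type, among them Gm8723 with 4.29, 121, 104 and 58.5 CPM and Gm8711 with 3.28, 105, 62.4 and 40.8 CPM over the days. Gm4312, just outside the bound, lies in the same run with 3.45, 124, 102 and 62.1 CPM.

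Likeness to the Zscan4 family was measured as Pearson's r of log2(CPM + 1) with the mean of 6 Zscan4 genes over the 12 libraries, which share their days. Summed, those Zscan4 genes stood at 16.8 ± 0.885, 297 ± 10.9, 321 ± 9.70 and 88.1 ± 2.11 CPM, so their day 4 mean was above that of day 2. The rule selects a profile close to this one, so r is largely set by it and nothing is read from a high value. Outside the repeated and 2-cell set, r was 0.978 for Stra8 and 0.986 for Fbp2, an enzyme of sugar synthesis, and Clgn had the lowest r of the group, 0.183. Of 44 listed 2-cell genes in the table, 26 reached 5 CPM at day 2 and 2 times day 0, and 10 of these were not in the group. In 9 of the 10 day 4 was above day 2, as in Pramel7 with 1.55, 45.4, 95.2 and 95.2 CPM and Gm2016 with 2.77, 21.5, 26.6 and 7.25 CPM.

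The 4 genes of fatty acid metabolism given next were grouped after their values were seen. Scd1 and Scd2, which place the first double bond in saturated fatty acids, lie next to each other on chromosome 19 between 44293674 and 44407879. Scd2 read 191, 191 and 185 at day 0, 558, 546 and 583 at day 2, 294, 311 and 303 at day 4, and 261, 257 and 259 CPM at day 6. Its 4 days did not overlap, and day 6 stayed above day 0 by 0.35 ± 0.044 (adjusted p = 4.04e-09, edgeR). Scd1 read 50.1, 49.2 and 54.7 at day 0, 114, 97.7 and 115 at day 2, 44.1, 41.5 and 44.8 at day 4, and 39.4, 38.4 and 36.6 CPM at day 6. Its day 4 and day 6 libraries were all below day 0, and day 6 was lower by a log2 change of -0.53 ± 0.068 (adjusted p = 6.92e-09).

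Fads2, the desaturase at the entry to long polyunsaturated fatty acids, had 38.4, 81.8, 55.1 and 34.1 CPM and ended below day 0, at -0.27 ± 0.075 (adjusted p = 0.00131). Acsl4, which activates such fatty acids by joining them to coenzyme A, had 27.5, 78.7, 32.3 and 29.4 CPM. Its change of day 6 against day 0 was -0.01 ± 0.076 and not called (adjusted p = 0.91).

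Bhmt and Dmgdh, enzymes of consecutive steps of betaine breakdown, are neighbours on chromosome 13 between 93616675 and 93752833. Bhmt passes a methyl group from betaine to homocysteine, and Dmgdh oxidises the dimethylglycine that is left. Bhmt read 2.85, 3.09 and 2.96 at day 0, 18.6, 19.6 and 19.9 at day 2, 6.59, 4.63 and 5.47 at day 4, and 2.34, 2.51 and 3.90 CPM at day 6. Days 0 and 6 overlapped, and the change between them was -0.16 ± 0.23 (adjusted p = 0.537, edgeR, not called). Dmgdh, with 3.51, 8.73, 3.14 and 1.18 CPM, was below day 0 at day 6 by a log2 change of -1.66 ± 0.25 (adjusted p = 2.58e-07). The peak of Bhmt was 6.53 times the larger of days 0 and 6 and that of Dmgdh 2.49 times.

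Of the 13 genes with a peak ratio above 5, 6 belong to the repeated and 2-cell set, led by Gm5788 at 9.46, and 7 to the other genes. Tll1, a protease that processes collagen and frees BMP proteins, had the largest ratio, 9.69. Its libraries read 2.00, 1.98 and 2.84 at day 0, 21.5, 21.9 and 22.8 at day 2, 4.99, 4.53 and 4.03 at day 4, and 1.73, 1.42 and 1.48 CPM at day 6. Day 4 lay above day 0 by 0.88 ± 0.21 (adjusted p = 0.000275) and day 6 below it by a log2 change of -0.64 ± 0.26 (adjusted p = 0.0284), a call that edgeR did not make without day 0 replicate 3 (-0.45, adjusted p = 0.194), day 6 replicate 2 (0.0699) or day 6 replicate 3 (0.0613). Nt5e encodes CD73, the surface enzyme that makes adenosine from AMP. Its libraries read 1.05, 0.990 and 0.829 at day 0, 6.80, 6.18 and 6.33 at day 2, 0.798, 1.18 and 1.30 at day 4, and 1.13, 0.764 and 0.950 CPM at day 6.

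By day 4 Nt5e overlapped its day 0 libraries, the largest drop from day 2 in the group, 5.90 times. Its changes against day 0 were 0.026 ± 0.37 at day 4 (adjusted p = 0.957) and -0.09 ± 0.36 at day 6 (adjusted p = 0.842), neither called by edgeR. Pgbd5, derived from a piggyBac transposase, had 7.80, 50.1, 14.5 and 6.34 CPM and a ratio of 6.43. It was below day 0 at day 6 by a log2 change of -0.39 ± 0.15 (adjusted p = 0.0146, and 0.0527 without day 0 replicate 2). Csn3, kappa-casein of milk, had no count in the 3 day 0 libraries and 6.88, 7.15 and 6.99 CPM at day 2. Against a floor of 3 counts summed over day 0, day 2 was at least 60.8-fold higher and day 6, at 0.980, 0.655 and 1.27 CPM, at least 8.38-fold higher.

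Ratios above 4 were also seen in Cpa1, a pancreatic carboxypeptidase, at 0.614, 5.27, 2.88 and 0.831 CPM, in Cacna1s, the voltage-gated calcium channel of skeletal muscle, at 2.12, 13.8, 9.91 and 2.76 CPM, and in Fmo5, a flavin monooxygenase, at 2.68, 11, 4.29 and 2.56 CPM. None of the 3 was called between days 6 and 0 by edgeR (adjusted p = 0.567, 0.33 and 0.465). A missed call does not show that the levels of days 0 and 6 were the same.

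Clgn and Spesp1, genes of sperm function, were among those that ended below day 0, a grouping made after their values were seen. Aard is given beside them for its low day 6 level, not for such a function. Clgn encodes calmegin, a chaperone that sperm proteins need to fold. Its libraries read 130.2, 123 and 122 at day 0, 259, 259 and 263 at day 2, 76.1, 83.5 and 78.8 at day 4, and 45.4, 44.2 and 39.5 CPM at day 6. The days did not overlap; days 4 and 6 were below day 0 by log2 changes of -0.78 ± 0.053 (adjusted p = 2.16e-16) and -1.64 ± 0.056 (adjusted p = 4.83e-26, edgeR). Aard, named for a protein with alanine- and arginine-rich parts, read 58.1, 56.9 and 63.5 at day 0, 161, 152 and 165 at day 2, 51.2, 50.2 and 47.5 at day 4, and 14.5, 17.0 and 17.5 CPM at day 6. It had the lowest change of the group at day 6, -1.98 ± 0.073 (adjusted p = 8.11e-25). Spesp1, of the sperm head, had 3.32, 7.23, 6.07 and 1.61 CPM, kept 83.9% of day 2 at day 4, and was then below day 0 by a log2 change of -1.09 ± 0.25 (adjusted p = 0.000164).

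The other genes below day 0 at day 6 by the test were Plk3, a stress kinase, at -0.90, Mall at -0.78, Lmo2 at -0.74, Camk2n1, an inhibitor of the kinase CaMKII, at -0.69, and Gprc5b at -0.64. Septin 11 (Sept11), a cytoskeletal filament protein with 288, 585, 286 and 221 CPM, was at -0.49, and Zmym3, a zinc finger protein, at -0.20. Without day 6 replicate 2 the calls for Mall (adjusted p = 0.0542) and Lmo2 (0.0555) were lost, as was that for Lmo2 without day 6 replicate 3 (0.0508). Mall was not called by DESeq2 (0.065), nor Zmym3 with library size alone (0.149). Of the 19 genes 15 had dropped to 50% or less of day 2 by day 4, while of the 59 that stayed above day 0, 12 had, and of all 102, 34 had. The 59 include 25 of the 27 repeated and 2-cell genes, and of those 27 only 1 had dropped so far. Days 0, 4 and 6 are all bounded by day 2 in the rule, so nothing is read from this difference.

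The group held 2 genes that flank the HoxB cluster. Calcoco2, a receptor that brings bacteria and mitochondria to autophagy, lies 82.4 kb from the cluster (chr11:96194316-96368256). Skap1, an adaptor of T cell signalling, lies 96.3 kb from its other end. Calcoco2 read 47.8, 39.5 and 47.1 at day 0, 177, 167 and 166 at day 2, 68.0, 66.0 and 64.5 at day 4, and 32.3, 34.8 and 32.0 CPM at day 6. The days did not overlap, and day 6 was below day 0 by a log2 change of -0.55 ± 0.069 (adjusted p = 4.49e-09, edgeR). Skap1, at 1.07, 5.45, 4.11 and 1.90 CPM, stayed above day 0 by 0.72 ± 0.30 (adjusted p = 0.032, but 0.106 by DESeq2, and by edgeR 0.0828 without day 0 replicate 2, 0.0964 without day 0 replicate 3 and 0.0712 without day 6 replicate 1).

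Between Calcoco2 and the cluster lies Ttll6, which had no peak: its means were 33.7, 8.85, 3.46 and 2.14 CPM, highest at day 0. Hoxb8, Hoxb6, Hoxb2 and Hoxb1 met every value of the rule and were left out by name alone. Hoxb6 had the highest of them, with 0.120, 135, 69.7 and 44.2 CPM, and Hoxb1 the steepest drop, with 0.0746, 27.7, 9.38 and 3.69 CPM. Snx11, beyond Skap1, had 19.07, 18.8, 15.3 and 14.1 CPM, its day 0 and day 2 means differing by less than their SDs. A highest mean at day 2 was not particular to the genes named. Beyond Calcoco2, Ube2z had 78.7, 148, 120 and 124 CPM, Snf8 46.6, 56.4, 46.3 and 42.8 CPM, and Igf2bp1 113, 126, 107 and 117 CPM.

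**Figure D4:**
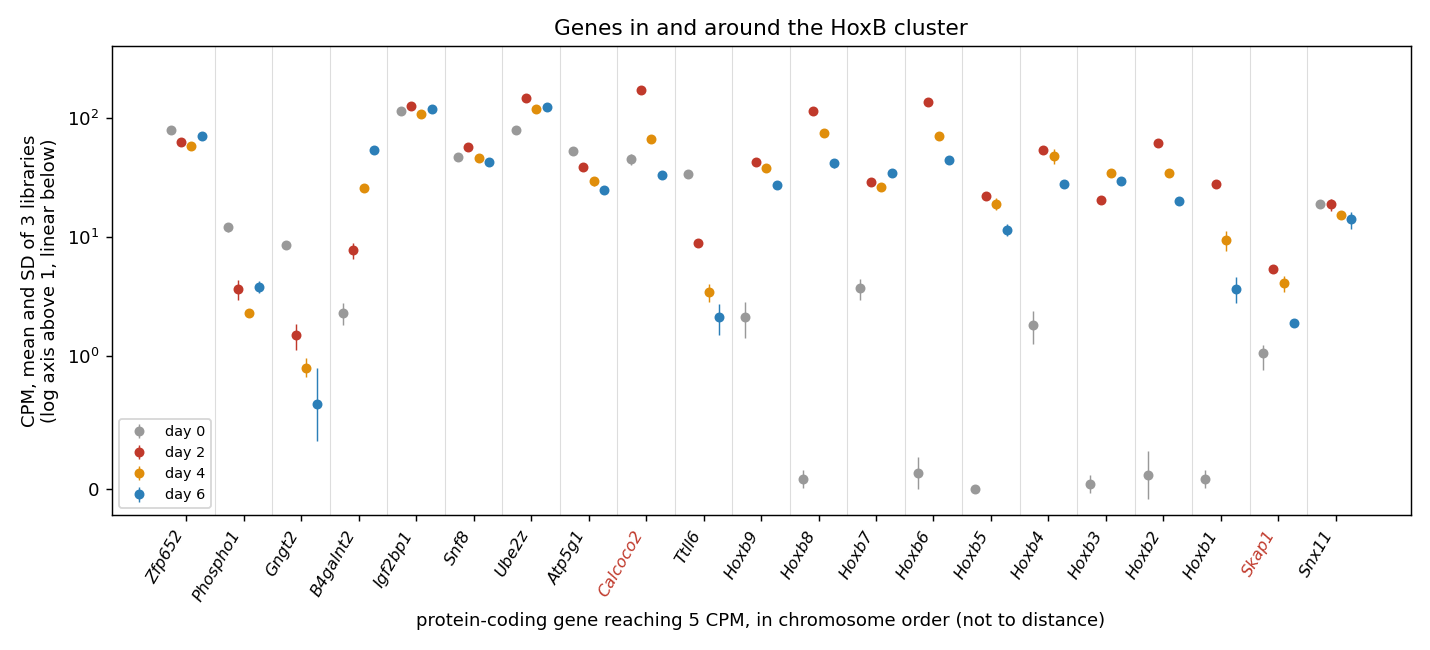
Mean CPM with SD (n = 3) on days 0, 2, 4 and 6 for protein-coding genes in and around the HoxB cluster that reach 5 CPM on any day, in chromosome order and not spaced by distance; the vertical axis is logarithmic above 1 CPM and linear below. Calcoco2 and Skap1 (red labels) are highest at day 2, as are several Hoxb genes. Igf2bp1, Snf8 and Ube2z, outside the group, also have their highest mean at day 2, while Ttll6 is highest at day 0.

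At the other end, some genes were almost as high at day 4 as at day 2. Acyp2, an acylphosphatase, kept 96.6%, Fgf1 96.3%, Usp17ld 96.1% and Pramef6 98.3%, and the day 2 and day 4 libraries overlapped in each. Pimreg, a mitotic regulator with 57.0, 168, 117 and 68.4 CPM, and Amn, of the receptor for vitamin B12 uptake, with 6.09, 32.2, 20.5 and 12.01 CPM, fell slowly and stayed above day 0 by 0.16 (adjusted p = 0.0198, edgeR) and 0.88 (adjusted p = 4.68e-06). The call for Pimreg was lost with DESeq2 (0.0644), upper-quartile scaling (0.076) and without day 0 replicate 2 (0.191) or day 6 replicate 1 (0.156). Amn was the only gene of the group among 35 endoderm markers, of which 24 reached 5 CPM and 2 times day 0 and 23 kept more than 50% of day 2 at day 6.

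The lowest day 2 levels were those of Mall at 5.02 and Oprl1 at 5.05 CPM, while C530008M17Rik and Gse1, just inside the bound, had 98.1 and 161 CPM. The group also holds Atf5, a regulator of the stress response, at 12.2, 43.4, 28.4 and 19.6 CPM, Pik3r3, a regulatory subunit of PI3 kinase, at 18.4, 63.2, 44.7 and 29.8 CPM, Ap3b2, a neuronal vesicle coat subunit, at 4.83, 39.2, 20.5 and 17.8 CPM and Asb4 at 1.93, 17.6, 5.49 and 5.65 CPM. Gm49337 overlaps Pik3r3 on the same strand, and with strand use not given their reads cannot be told apart. In all, 22 genes of the group share exon bases with another gene.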

How the data were processed

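The deposited table holds raw read counts per gene for 12 libraries and 55335 genes, as whole numbers, per the file headers and values. The submitters' processing notes name the build mm10 and the tools HISAT2 2.1.0, featureCounts 2.0.1, FastQC 0.11.7 and DESeq2, without their roles. The annotation release, strand use and how multi-mapping reads were handled are not given in the sources used here. RNA was extracted with a MiniBEST kit and libraries made with a SMARTER kit, per the labels' protocols.

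Levels are CPM of column totals. Gene positions come from GENCODE M21, in which 55154 IDs matched, and promoters from RefSeq (GRCm38.p6), in which 59 of 102 genes matched. Counts were tested in R 4.3.3 with edgeR 4.0.16 (TMM scaling, filterByExpr by day, robust quasi-likelihood fit with a coefficient per day over 12 libraries), two-sided, with Benjamini-Hochberg adjustment over 16468 genes and a threshold of 0.05. The fit was tested on simulated data. SE were recovered from the test statistic. Replicate libraries of a day differed by more than sampling noise (chi-square per degree of freedom 1.51 to 3.80).

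The genes, lists and tests were chosen with earlier results of these data known. Named were the 12 largest peak ratios, the 8 highest day 2 levels, the 4 highest and 4 lowest ratios of day 4 to day 2, the 6 highest and 6 lowest called changes of day 6 against day 0, up to 3 genes of each list, and 3 genes on each side of the bound, passing over Gm-type symbols outside list counts. Other genes were named after their values were seen: Gfra1, Porcn, Sall3, Lmo2, Ebf1, Npr1, Scd1, Fads2, Acsl4, Skap1, Plk3, Mall, Camk2n1, Gprc5b, Zmym3, Tcstv1, Fbp2, Oprl1, Atf5, Pik3r3, Ap3b2, Asb4, AF067061, BC147527, Usp17la, Usp17lc, the Gm genes and the list and HoxB genes outside the group. Alternatives were median-ratio, upper-quartile and library-size scaling, other filters, DESeq2 1.42.0, limma-voom (limma 3.58.1), the 6 libraries of a comparison, a replicate block, an adjusted p under 0.01, each library left out, and other bounds. Plots used matplotlib 3.10.9 under Python 3.11.15.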

Additional observations from a re-analysis of the deposited data

How the results depend on the processing

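The number of genes depended on the bound: 328 met the rule at 1.5 times, 36 at 3 times and 72 at 10 CPM. With TMM-scaled CPM in the rule, 89 did, and of these 12 were lower at day 6 than at day 0, 3 lower at day 4 than at day 0 and 1 higher at day 6 than at day 4. Leaving out 1 library at a time gave 97 to 105 genes. The count of genes higher at day 6 than at day 4 was 2, 0 at an adjusted p under 0.01 (edgeR), 0 with DESeq2 and 1 to 2 without 1 library. Over all alternatives the genes higher at day 6 than at day 0 numbered 51 to 61 and the lower ones 12 to 19. Of the 20 single genes followed, Bhmt and Nt5e, neither of them called, had estimates on both sides of 0, and Tll1, Skap1 and Pgbd5 lost their call in some alternatives. In all, 15 genes lost the call of day 6 against day 0, at an adjusted p of 0.05, in at least 1 alternative, and with 0.01 as the threshold 51 were higher and 15 lower. Library size alone moved the median of all genes by 0.104 at day 6 against day 0, by 0.128 at day 4 against day 0 and by -0.0238 at day 6 against day 4. The cause was not tested. Low counts limit genes such as Msx1, Sfrp5 and Csn3, with 8, 11 and 0 counts at day 0.

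The replicate numbers were not found to pair libraries: the deviations of same-numbered libraries correlated from -0.0656 to 0.1 (median -0.0127). With a replicate block, 59 genes were higher and 19 lower at day 6 than at day 0, 78 and 7 at day 4 than at day 0, and 2 and 79 at day 6 than at day 4.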

Other observations

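Genes of other types met the same values. They numbered 36, of which 22 were processed and 8 unprocessed pseudogenes, 1 a transcribed processed pseudogene, 3 long noncoding RNAs and 2 miRNA genes. They are listed as values only, since copies of genes can share reads. The highest were Gm8723 at 4.29, 121, 104 and 58.5 CPM and Gm8711 at 3.28, 105, 62.4 and 40.8 CPM on days 0, 2, 4 and 6, both in the chromosome 10 run. The noncoding RNAs were 3222401L13Rik at 3.85, 13.8, 7.29 and 5.32 CPM, Tslrn1 at 4.95, 11.7, 7.61 and 5.24 CPM and Gm27167 at 1.12, 6.5, 3.94 and 1.51 CPM. The miRNA genes overlap genes of the group on the same strand, Mir5114 in Scd2 with 9.59, 27.4, 10.1 and 11.9 CPM and Gm25239 in Sox1 with 2.14, 5.0, 3.53 and 1.44 CPM, and their reads cannot be told apart from those of Scd2 and Sox1.

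Of the 8 genes left out by name, 4 are Zscan4 copies and 4 are Hoxb genes. Zscan4-ps3 was the highest Zscan4 copy at 4.41, 70.9, 58.2 and 12.95 CPM, followed by Zscan4b at 2.09, 49.3, 45.9 and 13.9 CPM. Hoxb8 stood at 0.0764, 115, 75.0 and 41.8 CPM and Hoxb2 at 0.105, 61.5, 34.3 and 19.97 CPM.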
